A study of Mus musculus with 4 samples.

Results

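Of the 17259 genes with a normalised count, 10 were examined that mature adipocytes use to take in, store, release and signal about fat. They were chosen by name, as abundant adipocyte mRNAs for proteins of different destinations, and each name matched 1 entry. The encoded proteins are secreted (Adipoq, Cfd, Lpl), span the plasma membrane (Cd36), sit on lipid droplets (Plin1, Plin5, Cidec, Pnpla2) or are cytosolic (Fabp4, Lipe). RNA came from brown adipose tissue (BAT) of mice of genotype WT, and the labels give no treatment other than the fractionation and no age or sex. The 2 BAT-Mito libraries hold RNA of isolated mitochondria. The study's methods, written for hearts, exposed mitochondria to digitonin and RNase A ahead of RNA extraction, an enzyme that degrades RNA outside them, and whether this was done for BAT is not stated. The 2 BAT-total libraries carry the word total in their names, and the treatment label calls them the tissue that was left without mitochondria, while the study elsewhere speaks of total lysates of BAT. They are called BAT-total here, and whether mitochondria had been taken out of them cannot be told from these values. Nothing states that the replicates came from separate animals, so p-values measure the spread between these libraries, which may be technical. The comparison asks how the levels of these mRNAs differ between the fractions, and whether the difference depends on where the protein goes.

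Brown adipocytes keep triglyceride in many small droplets and burn its fatty acids in densely packed mitochondria. Fat reaches the cell when lipoprotein lipase frees fatty acids at the capillary wall. It is stored behind a coat of perilipins and is released by adipose triglyceride lipase and hormone-sensitive lipase in turn. Messenger RNAs for secreted and membrane proteins are translated on the endoplasmic reticulum, which touches mitochondria, and those for cytosolic proteins on free ribosomes. All of these mRNAs are transcribed in the nucleus and none is a transcript of the mitochondrial genome.

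Secreted proteins are marked by a hydrophobic signal at the start of their coding sequence, and the first 25 codons of 7 of the genes are shown to set this destination beside the others. They were read from the principal transcripts of GENCODE M21 on GRCm38. Capitals mark codons with T in the middle position, which stand for the hydrophobic residues phenylalanine, leucine, isoleucine, methionine and valine. The 3 secreted proteins begin with a signal peptide, and Cd36 with an uncleaved membrane anchor. Plin5, Fabp4 and Lipe have no signal peptide.
Adipoq: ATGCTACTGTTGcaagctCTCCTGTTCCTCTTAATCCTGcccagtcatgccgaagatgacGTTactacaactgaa
Cfd: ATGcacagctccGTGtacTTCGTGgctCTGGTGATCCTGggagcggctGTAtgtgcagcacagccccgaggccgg
Lpl: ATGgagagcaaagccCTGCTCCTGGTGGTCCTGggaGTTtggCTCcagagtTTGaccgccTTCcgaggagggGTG
Cd36: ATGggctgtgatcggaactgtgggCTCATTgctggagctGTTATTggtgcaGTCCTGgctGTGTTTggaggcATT
Plin5: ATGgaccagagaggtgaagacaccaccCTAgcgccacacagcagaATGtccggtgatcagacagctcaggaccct
Fabp4: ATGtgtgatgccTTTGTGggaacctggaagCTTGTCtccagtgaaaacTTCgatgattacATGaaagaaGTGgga
Lipe: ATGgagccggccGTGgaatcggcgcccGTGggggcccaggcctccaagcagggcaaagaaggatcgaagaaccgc

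The starts of Adipoq and Lpl each held 12 such codons among the 25, with unbroken runs of 7 and 6, and that of Cfd held 9 with a longest run of 4. The start of Cd36 held 10 with no run longer than 2. Those of Plin5 and Lipe held 3 each with none adjacent, and that of Fabp4 held 8 in runs of at most 2. Of the genes not printed, Plin1 and Pnpla2 held 9 and Cidec held 8, all with a longest run of 2. The start codon lies in exon 1 of Cfd, Lpl, Pnpla2, Fabp4 and Lipe, in exon 2 of Adipoq, Plin1, Plin5 and Cidec, and in exon 3 of Cd36.

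The values are normalised counts, which are gene counts divided by a size factor for each library. In BAT-Mito they rose in steps that give back the reads, 1 read being worth 8.32 units in the first library and 6.90 in the second, and the reads came to 26287617 and 24906520. In BAT-total no step was found, so the depth is unknown, and the normalised totals were 1590096 and 1905303. Mitochondrially encoded genes took 95.3% and 95.5% of BAT-Mito and 51.1% and 59.3% of BAT-total, so the 10 nuclear genes rested on small numbers of BAT-Mito reads. These came to 415 in replicate 1 and 1128 in replicate 2 for all 10 genes together.

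All 10 mRNAs were found in both BAT-Mito libraries, and with the deposited scaling all had a lower mean there than in BAT-total, while Cidec turned to a log2 fold change of 0.088 when median ratios over nuclear genes set the scale. The mean BAT-Mito level ran from 26.8% of the mean BAT-total level for Cd36 to 71.7% for Cidec. In 9 of the 10 genes both BAT-Mito libraries lay below both BAT-total libraries, a pattern that 52.1% of the 8215 tested genes had, and 59.6% of the 2481 genes with a mean of at least 50. With limma and values scaled to the sum of nuclear or of all genes, all 10 were called lower (adjusted p under 0.05). So were 7167 and 7963 of the tested genes. With the deposited scaling none of the 10 passed a limma adjusted p of 0.05 in either direction. Lower calls were then 4.41% of tested genes and 6 of the 2481 genes with a mean of at least 50. Unadjusted p-values under 0.05 were reached by 4 of the 10, which were Lpl, Cd36, Plin1 and Lipe, against 18.1% of all tested genes. Of the 362 genes that limma called lower, 359 were at 0 in both BAT-Mito libraries, a state that none of the 10 had. With edgeR on the recovered reads Lpl, Cd36 and Lipe were called lower, and with DESeq2 the same 3 genes were. Lower calls were 4.02% of tested genes with edgeR and 3.66% with DESeq2. Among the 2481 genes with a mean of at least 50 they were 218 and 235. Both of these tests took the BAT-total values as if they were reads. In tissue fractions, fewer adipocytes behind a library and less of an mRNA for each adipocyte cannot be told apart. With 2 libraries in each group the smallest two-sided p of an exact permutation test is 0.333, so no single gene can be tested that way.

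**Figure D1:**
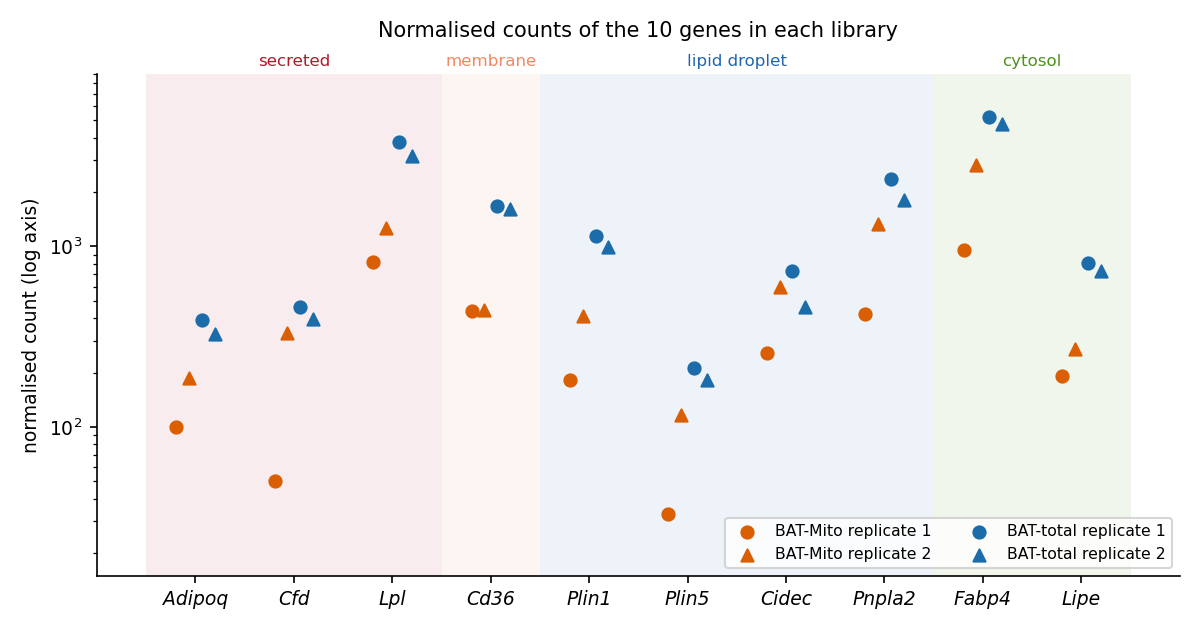
Normalised counts of the 10 genes in each library on a log axis, with 1 point per library and the genes grouped by the destination of their proteins. The BAT-Mito points lie below the BAT-total points for every gene but Cidec, where they overlap, and the BAT-Mito points of Cfd, at 50 and 331, lie farthest apart.

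The secreted proteins come first. Adipoq encodes adiponectin, the adipocyte hormone that raises insulin sensitivity (ENSMUSG00000022878, chr16:23146536-23158028, plus strand, GRCm38). Its normalised counts were 100 and 186 in BAT-Mito, from 12 and 27 reads, and 392 and 328 in BAT-total. The groups did not overlap, and the log2 fold change was -1.39 (SE 0.54, limma adjusted p = 0.299). Cfd encodes adipsin, the complement factor D that adipocytes release (ENSMUSG00000061780, chr10:79890853-79892655, plus strand). It was at 50 and 331 in BAT-Mito, from 6 and 48 reads, and at 460 and 397 in BAT-total. Replicate 2 of BAT-Mito came near the BAT-total level of Cfd while replicate 1 stayed far under it, and the log2 fold change of -1.72 had an SE of 1.12 (limma adjusted p = 0.424). Lpl encodes lipoprotein lipase, which adipocytes secrete and endothelial cells carry to the capillary lumen (ENSMUSG00000015568, chr8:68880491-68907448, plus strand). Lpl stood at 816 and 1263 in BAT-Mito, from 98 and 183 reads, and at 3804 and 3176 in BAT-total. Both BAT-Mito values were far below both others, with a log2 fold change of -1.77 (SE 0.48, limma adjusted p = 0.228, edgeR adjusted p = 0.0466). Lpl was the most abundant of the 3 secreted transcripts in every library as deposited. Its mRNA is also the longest of the 10, and per kb of transcript it averaged 848 units in BAT-total against 465 for Cfd and 279 for Adipoq, while in BAT-Mito replicate 2 it had 307 against 359 for Cfd.

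Cd36, the fatty acid translocase of the plasma membrane, had the most even values of the 10 (ENSMUSG00000002944, chr5:17781690-17888801, minus strand). BAT-Mito held 441 and 442 units of it, from 53 and 64 reads, and BAT-total held 1677 and 1614. The near identity of the BAT-Mito values is finer than 1 read can resolve, and the groups did not overlap. On the log2 scale the difference was -1.90 (SE 0.41), with an adjusted p of 0.172 in limma, where the spread of a gene is drawn toward that of all genes. With edgeR the adjusted p was 0.0349 and with DESeq2 it was 3.4e-06. Cd36 is also expressed by capillary endothelium. The 8 endothelial markers examined, among them Pecam1, Cdh5 and Kdr, were all below 0 in log2 fold change, with summed values of 117 and 35 in BAT-Mito and 1172 and 1227 in BAT-total, and Emcn and Egfl7 were at 0 in both BAT-Mito libraries. The part of endothelial RNA in the Cd36 difference was not tested.

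The lipid droplet proteins had the widest range of the 4 destinations. Plin1 encodes perilipin 1, the gatekeeper of the droplet surface in fat cells (ENSMUSG00000030546, chr7:79720218-79732903, minus strand). It was at 183 and 414 in BAT-Mito, from 22 and 60 reads, and at 1138 and 990 in BAT-total. Its log2 fold change of -1.94 (SE 0.61) was the lowest of the 10 in limma with all libraries, though Cd36 was lower with edgeR, with DESeq2, without BAT-Mito replicate 1 and without BAT-total replicate 1, and Cfd without BAT-Mito replicate 2. Plin1 had adjusted p-values of 0.266 in limma and 0.0549 in edgeR. Plin5 encodes the perilipin of oxidative tissues, which is known to tether droplets to mitochondria (ENSMUSG00000011305, chr17:56111601-56117596, minus strand). It had 33 and 117 units in BAT-Mito, from only 4 and 17 reads, and 212 and 182 in BAT-total, so that its log2 fold change of -1.64 (SE 0.80, limma adjusted p = 0.343) was imprecise. The log2 fold changes of the 2 perilipin genes differed by less than either SE. Pnpla2 encodes adipose triglyceride lipase, which removes the first fatty acid of a triglyceride (ENSMUSG00000025509, chr7:141455198-141460743, plus strand). It was at 424 and 1339 in BAT-Mito, from 51 and 194 reads, and at 2359 and 1813 in BAT-total, a log2 fold change of -1.46 (SE 0.77, limma adjusted p = 0.362).

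Cidec, whose protein fuses and enlarges lipid droplets, was the gene with the smallest difference (ENSMUSG00000030278, chr6:113424634-113435760, minus strand). Its values were 258 and 600 in BAT-Mito, from 31 and 87 reads, and 733 and 463 in BAT-total. The groups overlapped, since BAT-Mito replicate 2 lay above BAT-total replicate 2. The log2 fold change was -0.56 (SE 0.67, limma adjusted p = 0.606), which was 0.66 above the median of all tested genes. Without BAT-Mito replicate 1 it was 0.042. Cidec was also the gene whose BAT-total replicates were farthest apart, by -0.66 on the log2 scale for replicate 2 against replicate 1.

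Both cytosolic proteins handle fatty acids inside the cell. Fabp4 encodes the fatty acid binding protein of adipocytes (ENSMUSG00000062515, chr3:10204088-10208576, minus strand). It was the most abundant of the 10 mRNAs in every library, at 957 and 2823 in BAT-Mito, from 115 and 409 reads, and 5208 and 4746 in BAT-total. The groups did not overlap, with a log2 fold change of -1.60 (SE 0.73, limma adjusted p = 0.325). Lipe encodes hormone-sensitive lipase, which acts after adipose triglyceride lipase and moves to the droplet when stimulated (ENSMUSG00000003123, chr7:25379527-25398710, minus strand). It had 191 and 269 units in BAT-Mito, from 23 and 39 reads, against 815 and 728 in BAT-total. Its log2 fold change was -1.76 (SE 0.45), with adjusted p-values of 0.216 in limma and 0.0489 in edgeR. Of the exon bases of Lipe, 15.6% are shared with an antisense gene, 4732471J01Rik, which had at most 8 units in any library. No exon of the other 9 genes overlaps that of another annotated gene.

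**Figure D2:**
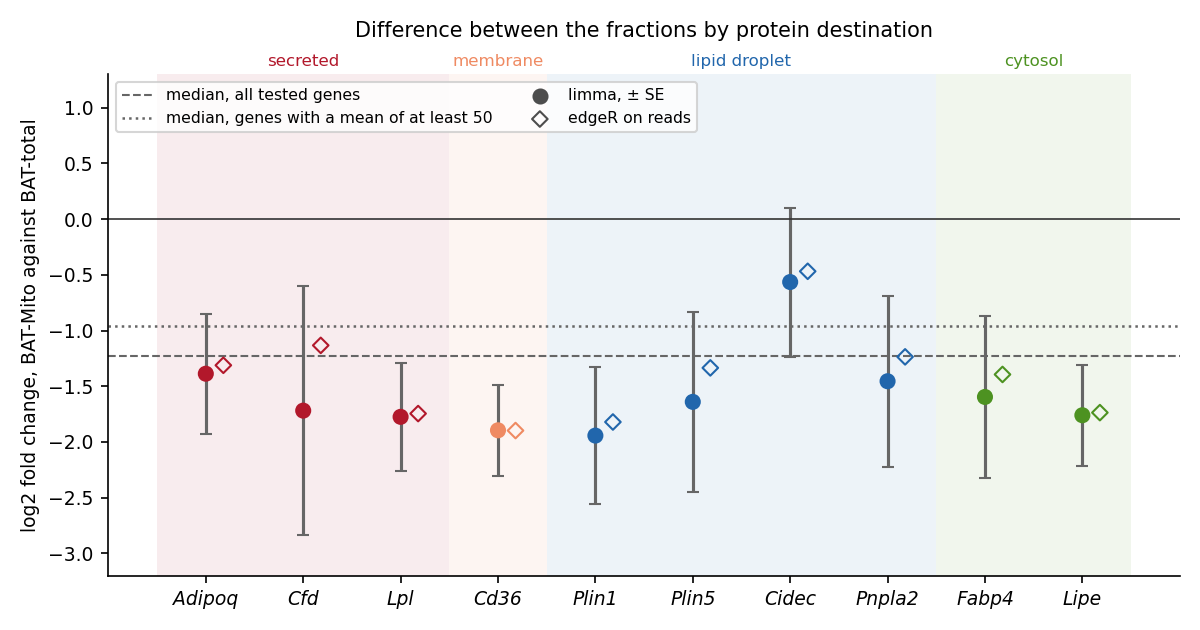
Log2 fold change of BAT-Mito against BAT-total for the 10 genes, with filled points and bars of 1 SE from limma and open diamonds from edgeR, in order of protein destination, beside the medians of all tested genes (dashed) and of genes with a mean of at least 50 (dotted). With the deposited scaling every point lies below 0, from -1.94 for Plin1 to -0.56 for Cidec, while median ratios over nuclear genes put Cidec at 0.088, and the bars of most genes overlap one another.

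The background matters for reading these sizes, because most nuclear genes were lower in BAT-Mito with the deposited scaling. The median log2 fold change was -1.68 over the 10 genes, -1.23 over all tested genes and -0.96 over genes with a mean of at least 50. Among all tested genes the 10 ranged from the percentile 32.1 of Plin1 to 68.8 of Cidec, and among genes with a mean of at least 50, which all 10 have, from 17.7 to 66.1. With edgeR on reads the medians were -1.36 and -0.80. Of the tested genes 3204 had at most 3 reads in each BAT-Mito library, which was taken as the floor of detection, and the median of all tested genes was -0.49 once such genes entered at that floor. None of the 10 was at that floor. BAT-Mito replicate 1 decided on which side of the all-gene median the 10 stood. Their median minus that of all tested genes was -0.45 with all 4 libraries, -1.13 without BAT-Mito replicate 2 and 0.038 without BAT-Mito replicate 1. Genes with a mean of at least 50 had medians against BAT-total of -1.07 in BAT-Mito replicate 1 and -0.70 in replicate 2, and the 10 lay below both, at -2.19 and -0.88.

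By destination the median log2 fold changes were -1.75 for the 4 secreted and membrane proteins, -1.55 for the 4 lipid droplet proteins and -1.68 for the 2 cytosolic proteins. The median of the secreted and membrane genes differed from that of the other 6 by -0.13, less than the spread of 0.54 (SD) that replicates gave. That difference changed sign with the replicate, being -0.42 without BAT-Mito replicate 1 and 0.34 without BAT-Mito replicate 2. Set against the mean of BAT-total, the secreted and membrane genes had medians of -1.99 in BAT-Mito replicate 1 and -1.20 in replicate 2, while the lipid droplet and cytosolic genes had medians of -2.33 and -0.78. The order of the destinations was thus opposite in the 2 libraries. In these values no destination stood apart from the others beyond the replicate spread.

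The make-up of the 10-gene sum, which no scaling can alter, also differed more between the BAT-Mito replicates than between the groups. Secreted and membrane genes took 37.7% and 38.2% of the sum in BAT-total. They took 40.7% (95% Wilson interval 36.1 to 45.5%) in BAT-Mito replicate 1 and 28.5% (26.0 to 31.3%) in replicate 2. The BAT-Mito libraries thus differed from each other beyond counting error. The interval of replicate 1 held both BAT-total values, and only that of replicate 2 lay apart from them. Of these genes Lpl took 23.6% (19.8 to 27.9%) and 16.2% (14.2 to 18.5%) of the sum in BAT-Mito against 22.6% and 22.0% in BAT-total, and Cd36 took 12.8% (9.90 to 16.3%) and 5.68% (4.47 to 7.18%) against 9.98% and 11.2%. Lipid droplet genes took 26.0% (22.0 to 30.5%) and 31.7% (29.1 to 34.5%) in BAT-Mito against 26.4% and 23.9%, and cytosolic genes 33.2% (28.9 to 37.9%) and 39.7% (36.9 to 42.6%) against 35.9% and 37.9%. Cidec had the clearest shift in share. It took 7.47% (5.31 to 10.4%) and 7.71% (6.30 to 9.42%) of the sum in BAT-Mito and 4.36% and 3.21% in BAT-total, higher in both BAT-Mito libraries than in either BAT-total library. The share of Adipoq was 2.90% (1.66 to 4.99%) and 2.39% (1.65 to 3.46%) against 2.33% and 2.27%, within counting error. That of Plin1 was 5.30% (3.53 to 7.90%) and 5.32% (4.15 to 6.79%) against 6.77% and 6.86%, so that only the interval of replicate 2 left out 1 of the BAT-total values. The other 7 genes overlapped in share. The intervals and the floor cover counting error only.

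**Figure D3:**
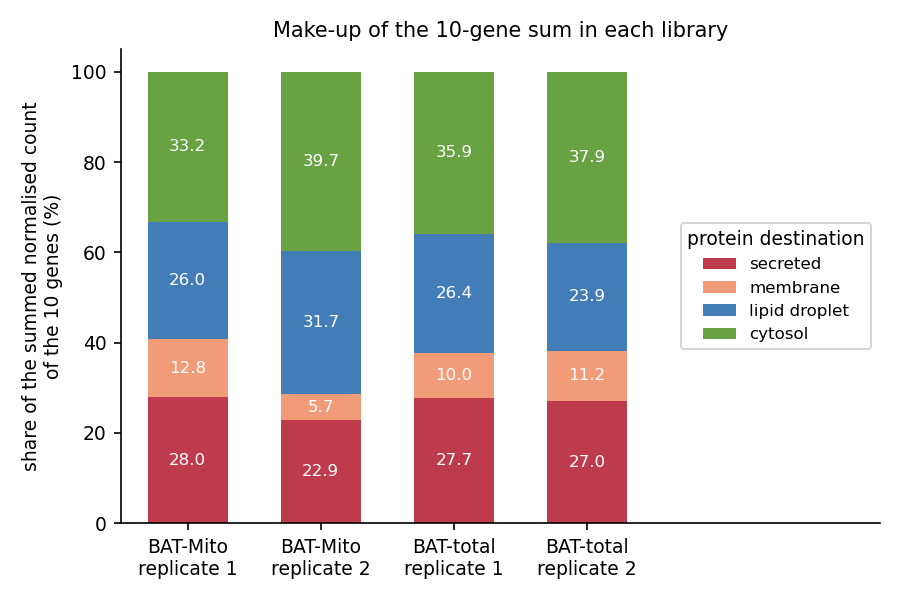
Share of the summed normalised counts of the 10 genes that each protein destination took, in percent, with 1 stacked bar per library. The secreted and membrane share is 37.7% and 38.2% in BAT-total and 40.7% in BAT-Mito replicate 1, whose counting interval holds both. In BAT-Mito replicate 2 it is 28.5%, with an interval below both.

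Among themselves the 10 genes kept much the same order of abundance. Per kb of principal transcript, a scale on which genes can be compared, Fabp4 was first with a mean of 5555 units in BAT-total and 2109 in BAT-Mito, followed by Pnpla2 with 1160 and 490 and Lpl with 848 and 253. Plin1, Cd36 and Cfd lay close together in BAT-total at 555, 546 and 465. Plin5 was last in both, with 99.2 and 37.8, behind Lipe with 214 and 63.7. Cidec moved from rank 7 in BAT-total, with 351, to rank 4 in BAT-Mito, with 252, a value next to the 253 of Lpl. Neighbours in this order whose BAT-total libraries overlapped were Plin1 and Cd36 and also Cidec and Adipoq. In BAT-Mito, where the order ran Fabp4, Pnpla2, Lpl, Cidec, Cfd, Plin1, Cd36, Adipoq, Lipe and Plin5, all neighbours overlapped except Fabp4 and Pnpla2, Cd36 and Adipoq, and Adipoq and Lipe.

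Most of the 10 genes differed between the BAT-Mito replicates in the same direction. All 10 were higher in replicate 2 than in replicate 1, Cd36 by only 1 unit, which is less than 1 read is worth, where 47.4% of tested genes and 54.5% of genes with a mean of at least 50 were. The median difference was 1.19 on the log2 scale for the 10 and 0.19 for genes with a mean of at least 50. It was largest for Cfd, 6.62 times as high in replicate 2, then Plin5 with 3.55 times, Pnpla2 with 3.16 and Fabp4 with 2.95. Plin1 and Cidec were 2.26 and 2.33 times as high, Adipoq 1.86, Lpl 1.55 and Lipe 1.41 times, and the ratio for Cd36 was 1.00. In BAT-total all 10 were instead lower in replicate 2, with log2 differences from -0.055 for Cd36 to -0.66 for Cidec. Across the 10 genes, longer transcripts had the smaller differences between BAT-Mito replicates (Spearman rho -0.61) and the lower log2 fold changes (rho -0.59), a description of 10 genes from the same 4 libraries. Of the 9 tested brown adipocyte markers 5 were higher in replicate 2. Among them was Ucp1, the uncoupling protein of heat production, at 1290 and 3554 in BAT-Mito and 4819 and 4185 in BAT-total. Dio2, Elovl3, Ebf2 and Prdm16 were lower in replicate 2, each from at most 5 reads in either BAT-Mito library. A limit of 10 reads in both BAT-Mito libraries together, set after the values were seen, left 5 markers. All 5 were higher in replicate 2. Liver markers moved the other way. All 8 of them were lower in replicate 2, with sums of 11151 and 843 in BAT-Mito against 266 and 71 in BAT-total, and the liver albumin gene Alb alone was at 4943 and 393. The part of these other RNAs in the differences between replicates was not tested.

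**Figure D4:**
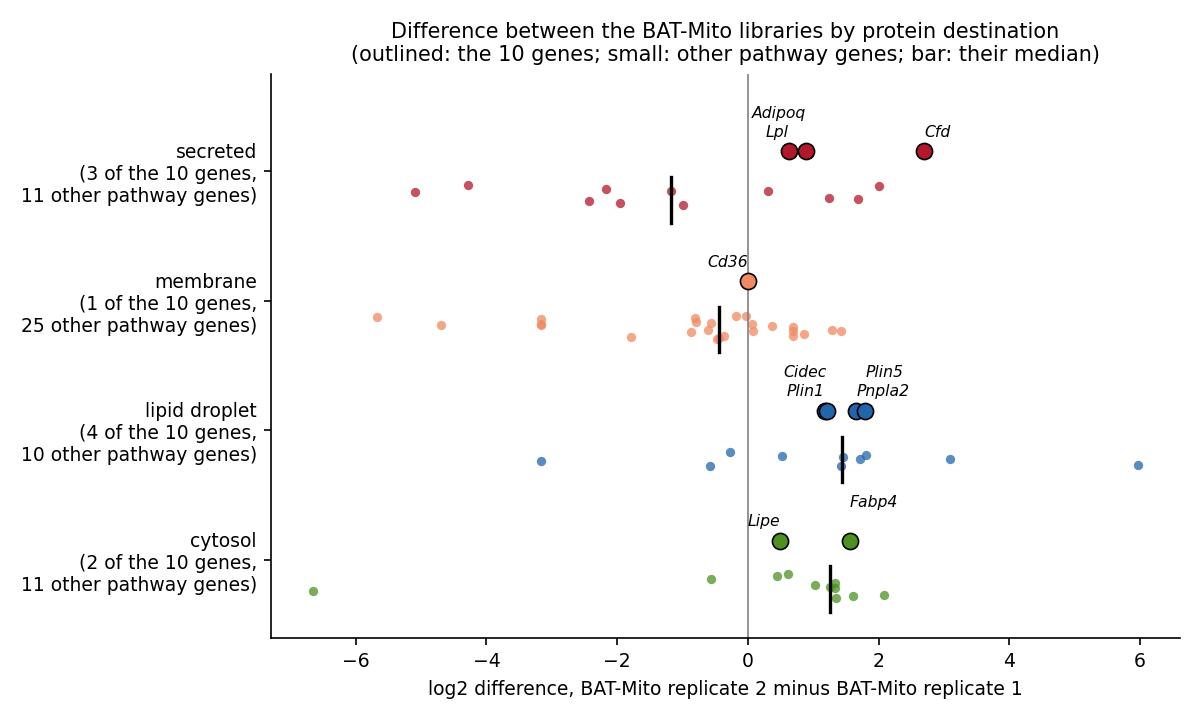
Log2 difference between BAT-Mito replicate 2 and replicate 1 for the 10 genes (outlined points) and for other genes of the same pathway (small points, with a bar at their median), by protein destination. None of the 10 lies below 0 and Cd36 lies at 0. The bars lie below 0 for secreted and membrane proteins and above 0 for lipid droplet and cytosolic ones.

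A wider list of adipokine, lipid uptake, triglyceride synthesis, droplet and lipolysis genes was read beside the 10. Of its 62 genes 60 were in the table and 57 were tested. With limma none passed the threshold in either direction, while 18 had an unadjusted p under 0.05, against 18.1% of all tested genes. With edgeR on reads 15 were called lower and 1 higher, against 4.02% and 1.64% of all tested genes, and with DESeq2 17 were lower and 1 higher, against 3.66% and 2.35%. Both BAT-Mito libraries lay below both BAT-total libraries for 45 of the 57, against 52.1% of all tested genes and 59.6% of those with a mean of at least 50. Of the 45, Slc27a4, Gpat3, Gpihbp1 and Hsd17b11 passed the filter only through BAT-total. The median log2 fold change was -1.74, beside the -1.68 of the 10 genes. It was -1.29 when the 8 genes at the floor entered at 3 reads.

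In this wider list the order of the destinations depended on the library, as in the 10 genes. Against the mean of BAT-total, BAT-Mito replicate 1 gave medians of 0.26 for secreted, -1.98 for membrane, -2.27 for lipid droplet and -1.76 for cytosolic genes. Replicate 2 gave -0.91, -2.27, -0.85 and -0.74. The secreted medians include Apoe, Apoc1, Rbp4 and Agt, which were higher in replicate 1, as all 8 liver markers were. The part of liver RNA in these medians was not tested. All 25 tested membrane genes had both BAT-Mito libraries below both BAT-total libraries, against 52.1% of all tested genes and 59.6% of those with a mean of at least 50, with a median of -2.30, or -1.97 when genes at the floor entered at 3 reads, and 11 of them were called lower by edgeR, against 4.02%. Of the 25 genes 6 were at the floor, among them 3 of those called, Adrb3, Bscl2 and Gpihbp1. Slc27a4, Gpat3 and Gpihbp1, each with 8 and 0 units in BAT-Mito, passed the filter only through BAT-total. The filter itself thus favoured their lying below. Mogat1, the 1 membrane gene in the table that the filter left out, overlapped, at 17 and 0 units in BAT-Mito against 1 and 9. Of the 11 called, named here after their values were seen, Acsl1 and Agpat2 activate and esterify fatty acids. Dgat2 makes triglyceride and Bscl2 encodes the droplet-forming protein seipin. Slc2a4 encodes the insulin-dependent glucose transporter, Aqp7 the glycerol channel, Vldlr a lipoprotein receptor and Cav1 the caveolar coat. Adrb3 and Pde3b act in the control of lipolysis by catecholamines and insulin, and Gpihbp1 anchors lipoprotein lipase at the endothelium. Acsl1 had 541 and 421 units in BAT-Mito and 2510 and 2264 in BAT-total, a log2 fold change of -2.32 (SE 0.43, edgeR adjusted p = 0.0234), although its protein is known on the outer membrane of mitochondria. Gpihbp1 had the lowest fitted value of the list and was at the floor, with 1 and 0 reads in BAT-Mito and 126 and 115 units in BAT-total. BAT-total was thus 31.9 times as high, with a 95% exact Poisson interval of 5.73 to 1261 for counting error, and the edgeR adjusted p was 0.0204. Gpihbp1 was lower in BAT-Mito, as were the 8 endothelial markers above, of which 6 were also at the floor. The part of endothelial RNA in its value was not tested. The membrane gene with the highest value was Adipor1, an adiponectin receptor, at 100 and 104 against 129 and 146 (log2 fold change -0.42, SE 0.41).

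The secreted genes of the wider list were mixed. Their median over 11 genes was -0.32, or -0.035 when the gene at the floor entered at 3 reads. In both BAT-Mito libraries 4 genes were lower and 2 higher than in either of the others, against 52.1% and 8.59% of all tested genes. Vegfa, the angiogenic factor, was the 1 secreted gene that edgeR called lower, against 4.02% of all tested genes. It had 117 and 145 units in BAT-Mito and 607 and 640 in BAT-total (log2 fold change -2.25, SE 0.42, edgeR adjusted p = 0.0289). Nrg4, a growth factor released by brown fat, had the lowest value of the group in limma, with 25 and 83 against 242 and 210 (log2 fold change -2.28, SE 0.77, limma adjusted p = 0.277). With edgeR Vegfa was lower, at -2.25 against -2.01 for Nrg4. Apoe was the gene with the highest value, at 5576 and 1242 in BAT-Mito against 459 and 270 (log2 fold change 2.90, SE 0.97, limma adjusted p = 0.276). It was called higher by edgeR (log2 fold change 3.22, edgeR adjusted p = 0.0312), against 1.64% of all tested genes. Apoe encodes an apolipoprotein made in liver and macrophages as well as fat. It was higher in replicate 1 of BAT-Mito, as all 8 liver markers were, and the 8 macrophage markers summed to 375 and 372 in BAT-Mito and 99 and 97 in BAT-total. The part of liver or macrophage RNA in the Apoe value was not tested.

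Of 10 other droplet genes 7 lay below BAT-total without overlap, a share not far from the 59.6% of genes with a mean of at least 50, with a median of -1.47, or -1.07 with the floor applied. Plin4, another perilipin, was the 1 droplet gene that edgeR called lower, against 4.02% of all tested genes. It had 100 and 269 units in BAT-Mito against 854 and 792 in BAT-total (log2 fold change -2.32, SE 0.68, edgeR adjusted p = 0.0438). Hsd17b11, a droplet dehydrogenase, had the lowest fitted value, which rests on the pseudocount because the gene was at the floor, with 1 and 0 reads in BAT-Mito and 32 and 36 units in BAT-total, which was 9.01 times as high (95% exact Poisson interval 1.62 to 356). Aup1, a protein of the droplet and the endoplasmic reticulum, had the highest value in limma, with 50 and 41 against 69 and 56 (log2 fold change -0.45, SE 0.43). With edgeR Plin3 and Rab18 were higher, at -0.29 and -0.42 against -0.46 for Aup1. The 11 cytosolic genes had a median of -1.11, and 9 lay below BAT-total without overlap. That pattern was shown by 52.1% of all tested genes and 59.6% of those with a mean of at least 50. Mgll and Lpin1 were called lower by edgeR, against 4.02% of all tested genes. The former is the last lipase of triglyceride breakdown and the latter a phosphatidate phosphatase. Mgll had 141 and 193 units in BAT-Mito and 680 and 553 in BAT-total, and Lpin1 had 108 and 166 against 464 and 541. Gk, glycerol kinase, had the lowest value of the cytosolic genes in limma, at 67 and 173 against 394 and 479 (log2 fold change -2.00, SE 0.67, limma adjusted p = 0.276). With edgeR Mgll and Lpin1 were lower, at -1.87 and -1.86 against -1.84 for Gk. Prkaca, the catalytic subunit of protein kinase A that drives lipolysis, had the highest value in limma and overlapped, at 133 and 338 against 308 and 297 (log2 fold change -0.51). That rank rests on the pseudocount, since Lpin2, with 100 and 0 units against 16 and 24, was at -1.04 in limma and 1.23 with edgeR, where Prkaca was at -0.34.

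The difference between the BAT-Mito replicates also ran along the destinations in the wider list. Its median was -1.17 for secreted and -0.44 for membrane genes and 1.44 for lipid droplet and 1.26 for cytosolic genes. Of the secreted genes Apoe, Apoc1, Rbp4 and Agt were lower in replicate 2, as all 8 liver markers were. Lep and Retn, also lower, had at most 4 reads in either BAT-Mito library. The part of liver RNA in the secreted median was not tested. In detail 4 of 11 secreted and 9 of 25 membrane genes but 7 of 10 droplet and 9 of 11 cytosolic genes were higher in replicate 2. Among genes with at least 10 reads in both BAT-Mito libraries together, a limit set after the values were seen, the counts were 3 of 7, 5 of 15, 6 of 8 and 9 of 10. Among the 10 genes Cd36 was likewise at 0 and the droplet and cytosolic genes above it, but the secreted Adipoq, Cfd and Lpl were higher in replicate 2, where 4 of the 11 other secreted genes were. These are counts over genes of 2 libraries and carry no test.

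**Figure D5:**
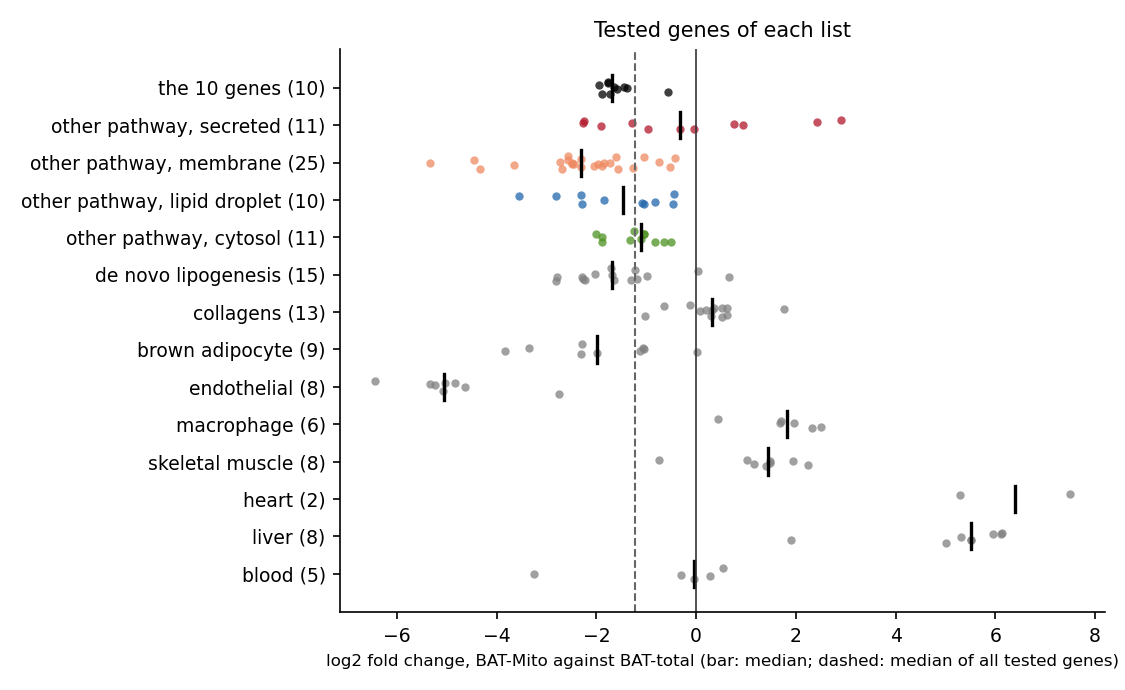
Log2 fold change of BAT-Mito against BAT-total for each tested gene of the lists, with 1 point per gene, a bar at each list's median, the number of genes in brackets and a dashed line at the median of all tested genes. With the deposited scaling the 10 genes lie below 0, Cidec turning to 0.088 with median ratios over nuclear genes, as do the membrane, lipid droplet and cytosolic genes of the wider list in limma (Lpin2 is at 1.23 with edgeR), and the collagens lie around a median of 0.32.

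Other gene groups gave a scale for the 10. De novo lipogenesis enzymes, such as Fasn with 1207 and 5949 units in BAT-Mito against 10901 and 15587, had a median log2 fold change of -1.69 over 15 genes, nearly that of the 10. Brown adipocyte markers had -1.98 over 9 genes, or -1.66 when the 3 of them at the floor entered at 3 reads. Collagens, which are secreted proteins of fibroblasts and other stromal cells, had 0.32 over 13 genes, with Col3a1 at 682 and 835 against 535 and 511. Of the 13 collagens 6 were higher in both BAT-Mito libraries than in either BAT-total library, against 8.59% of all tested genes, and Col4a1 and Col4a2 were lower in both. None of the 3 secreted genes among the 10 was higher in both. Markers of other tissues had medians above 0, of 1.44 for 8 skeletal muscle genes, 6.39 for the 2 heart genes of a list of 6 that the table held (Myh6 and Actc1), and 5.52 for 8 liver genes. Blood genes were at -0.035 over 5 genes. The part of RNA from these tissues in the scaling of the 10 genes was not tested.

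The genes whose values over the 4 libraries most resembled the median profile of the 10 were sought among 1080 other tested genes with a mean of at least 100. Ogdh, a subunit of the oxoglutarate dehydrogenase complex of the citric acid cycle, was the nearest at a Euclidean distance of 0.123 in log2 units. Its values were 424 and 966 in BAT-Mito and 2202 and 1905 in BAT-total. Next came Zfp644 at 0.133, Cox6a1 at 0.139, Afg3l2 at 0.149 and Hadhb at 0.153. Ogdh, Cox6a1, Afg3l2 and Hadhb encode proteins of mitochondria, and Zfp644 a zinc finger protein. Of the 10 genes themselves Fabp4 was nearest to their shared profile, at 0.244, and Cidec, Cfd and Cd36 were farthest, at 1.09, 1.04 and 0.936.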

How the data were processed

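RNA of 2 BAT-Mito and 2 BAT-total libraries had been prepared from 10 ng of total RNA each with a Pico Input Mammalian kit. Per the labels the reads were trimmed with Trimmomatic 0.39, aligned to mm10 with STAR 2.7.10a, counted with featureCounts 2.0.2 and normalised with DESeq2 1.30.1, and strand counting is not given in the sources used here. The study's methods set the fragmentation time of mitochondrial samples by the size of their RNA and give none for other samples, so library preparation may differ with the fraction. The deposited signal is a normalised count, gene counts that the authors divided by a size factor and rounded to whole numbers, in 1 table of 4 columns. Whole reads were recovered for BAT-Mito, where 99.5% and 99.2% of the values above 0 lay within 0.5 units of a whole number of reads, and not for BAT-total.

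Genes with a mean of at least 10 (8215 of 17259) entered limma 3.58.1 (R 4.3.3) as log2(normalised count + 1), with Benjamini-Hochberg adjustment over all of them and a threshold of 0.05. Because 1 BAT-Mito read is worth several units, an added 1 enlarges the decrease of genes with 0 reads in a BAT-Mito library. edgeR 4.0.16 (quasi-likelihood) and DESeq2 1.42.0 were run on the recovered BAT-Mito reads with BAT-total values taken as reads and the deposited scaling kept, an alternative added after the data were seen. They had been planned for reads of all libraries. Other settings were the pseudocount, the filter, 4 scalings, the replicate number as a block and leaving out each library. Per kb values were divided by the length of the GENCODE M21 principal transcript. Named were the 10 genes, the highest and lowest gene of each destination in the wider list and every gene of it that limma called, and the 5 genes most like the 10 in profile. The edgeR calls of the wider list and examples from other lists were named after their values were seen. The genes, destinations and lists were chosen with earlier results of these data known.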

Additional observations from a re-analysis of the deposited data

How the results depend on the processing

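Of the results for single genes under the alternatives, 97 kept direction and side of the threshold, 41 kept direction and came past it, and 2 reversed, both for Cidec: 0.088 with median ratios over nuclear genes and 0.042 without BAT-Mito replicate 1, within a range of -1.17 to 0.042 when each library was left out. None of the 10 genes was called lower with all libraries, against 2 (Cd36 and Lipe) with no filter, 10 with CPM of nuclear genes and 10 with CPM of all genes, 3 with edgeR, 3 with DESeq2 and 0 to 9 when 1 library was left out (4 without BAT-Mito replicate 1, 9 without BAT-Mito replicate 2). A lone library was then assumed to vary like the others. None was called higher in any setting. Over all tested genes the 362 lower calls became 1 with a pseudocount of 10, 3587 with no filter, 11 with a mean of at least 50, 7167 with CPM of nuclear genes, 7963 with CPM, and 0 to 3864 without 1 library (3374 without BAT-Mito replicate 1 and 3864 without BAT-Mito replicate 2). The 66 higher calls became 143 with no filter, 13 with CPM, 135 with edgeR, 193 with DESeq2 and 0 to 622 without 1 library (467 without BAT-Mito replicate 1). Higher calls were 15.4% of all calls, 98.1% with a pseudocount of 10, 85.3% with a mean of at least 50, 3.83% with no filter, 0.899% and 0.163% with CPM of nuclear and of all genes, 29.0% with edgeR and 39.1% with DESeq2. The median of the secreted and membrane genes moved to -1.10 with median ratios, -5.26 with CPM of nuclear genes and -8.46 with CPM, that of the droplet genes to -5.04 and -8.21 and that of the cytosolic genes to -5.20 and -8.44 with these CPM scalings. All tested genes moved too, to a median of -0.90 with TMM, -0.62 with median ratios, -4.41 with CPM of nuclear genes and -7.15 with CPM. With the replicate number as a block, which leaves 1 residual degree of freedom, limma called 0 genes lower and 0 higher, 944 genes had an unadjusted p under 0.05, and the 10 genes had adjusted p-values of 0.422 to 0.738. The labels state no pairing, and the replicate differences of BAT-Mito and BAT-total correlated at 0.112 over 8215 genes, from 1 pair of differences. Apart from what a setting builds in, the cause of these shifts was not tested. Depth limits the low genes, since Plin5 and Cfd rested on 4 and 6 reads in BAT-Mito replicate 1.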
